A study of Rattus norvegicus with 6 samples.

Results

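The levels of the miR-101 microRNAs (miRNAs, which silence messenger RNAs by pairing with them) were examined in neonatal rat cardiac fibroblasts and in the exosomes these cells shed into their medium. The members were the entries of the count table named miR-101a or miR-101b with either arm suffix, 4 of the 728 mature miRNAs listed: rno-miR-101a-3p, rno-miR-101b-3p, rno-miR-101a-5p and rno-miR-101b-5p, written below without the rat prefix. The cells came from hearts of untreated Wistar rats aged 1 to 2 days and were grown with 10% serum. For exosomes, vesicles of endosomal origin, the medium was changed for 48 h to one with 1% serum freed of exosomes, cleared by centrifugation and filtration, and ultracentrifuged. The labels place cell RNA under the same culture protocol. There were 3 exosome libraries (1, 2 and another whose column carried no number, here the unnumbered library) and 3 fibroblast libraries (1, 2 and 4). The labels do not say whether they came from separate cultures or how many animals were pooled, so a p-value here speaks of the variation among these libraries alone, and part or all of it may be technical.

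A miRNA hairpin is cut into a 5p and a 3p strand. One strand, the guide, is usually retained in the silencing complex and the other, the passenger, is usually degraded. For miR-101 the 3p strand is the guide. It is known as a repressor of Ezh2, a histone methyltransferase, of Ptgs2, an enzyme of prostaglandin synthesis, and of Fos, a transcription factor, and in cardiac fibroblasts it is described as a brake on proliferation and collagen production. Bases 2 to 8 of the strand, the seed, set most of its target choice.

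The mature strands are shown because the seed groups them and because the 3p strands are nearly identical, which bears on how well their reads can be told apart. All 4 members were found in RefSeq (build GRCr8), and the seed is in capitals.
miR-101a-3p: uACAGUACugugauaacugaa
miR-101b-3p: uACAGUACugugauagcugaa
miR-101a-5p: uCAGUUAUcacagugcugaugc
miR-101b-5p: uCGGUUAUcaugguaccgaugc

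The guides shared the seed ACAGUAC and matched at 20 of 21 bases. They differed by A16G (miR-101a-3p base, position from the 5′ end, miR-101b-3p base). Reads that end before this position, or carry an error at it, cannot be assigned to a copy, and the authors' counting rule is not given in the sources used here, so the split between the guides is uncertain while their sum is less so. The passenger strands matched at 17 of 22 bases and differed by A3G, C11U, A12G, G15A and U17C. The first of these lies in the seed, so the passengers had different seeds.

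The hairpins are shown to place the strands, which are in capitals.
Mir101a: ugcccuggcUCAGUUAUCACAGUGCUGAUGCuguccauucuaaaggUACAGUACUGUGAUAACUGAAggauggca
Mir101-2: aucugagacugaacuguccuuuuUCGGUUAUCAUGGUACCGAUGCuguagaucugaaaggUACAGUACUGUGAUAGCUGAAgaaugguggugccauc

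Mir101a, the source of miR-101a, is 75 bases long and lies at chr5:121081683-121081757 on the minus strand (GRCr8), inside the interval of a long non-coding RNA gene, LOC120102934, on the same strand. Mir101-2, the source of miR-101b, is 97 bases long and lies at chr1:236273922-236274018 on the plus strand (GRCr8), inside the interval of Rcl1, a gene of ribosomal RNA processing, on the same strand. Whether each hairpin is exonic or intronic was not determined. In both hairpins 15 bases separate the strands. The short motifs GGAG and CCCU, described as favouring export of miRNAs in vesicles, were searched on the mature strand. Neither occurred in a member, against 7.79% and 9.47% of the 655 listed miRNAs with a RefSeq sequence, and nothing follows from this about any factor.

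Total miRNA counts were 113129 to 120224 in exosomes and 2439559 to 12508651 in fibroblasts. One miRNA, miR-873-3p, took 84.9% to 90.1% of the exosome counts and 0.391% to 2.37% of the fibroblast counts, which left 11825 to 18164 exosome counts for all others. In exosomes, finding 0 counts still allows a share as high as 0.00250% to 0.00265% (3 counts of the total; this and the intervals below cover counting error only, since PCR copies are not independent molecules). The 7 miRNAs listed as markers of fibroblasts and other mesenchymal cells held 34.2% to 38.5% of fibroblast counts and 0.117% to 0.862% of exosome counts. All 7 of 7 were lower in exosomes. Over all 698 tested miRNAs 18.6% were lower and 11.3% higher, the background for the other markers too. Of the 50 most abundant in the cells 44 were lower, so nothing particular to these markers is read from their count. Cardiomyocyte markers (6 listed) held 0.00791% to 0.0172% of fibroblast and 0.00252% to 0.0116% of exosome counts. Each of the 6 was at 0 in at least 1 exosome library, and of the 4 tested miR-499-5p was lower in exosomes (log2 -3.78) and 3 were not called (miR-133a-3p log2 -0.73, miR-208a-3p log2 0.38, miR-208b-3p log2 0.68). Endothelial markers (2 listed) held 0.0100% to 0.0152% and 0.0840% to 0.0966%, and blood markers (6 listed) 0.00603% to 0.0312% and 0.0216% to 0.0230%. Of these, 1 endothelial (miR-126a-3p, log2 4.85) and 1 blood miRNA (miR-451-5p, log2 2.82) were higher in exosomes. The other endothelial marker, miR-126a-5p (log2 0.30), was not called. Nor were the other 5 blood markers: miR-144-5p (log2 1.78), miR-223-3p (1.45), miR-142-3p (-0.01), miR-142-5p (-0.72) and miR-144-3p (-1.15). The part of endothelial and blood miRNAs in the results below was not tested.

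Both guides were lower in exosomes than in the fibroblasts, about 10-fold for miR-101a-3p and 11-fold for miR-101b-3p, with no overlap between the groups. These values hold for TMM scaling. With library totals that leave out miR-873-3p the log2 fold changes were -1.06 and -0.69 and neither guide was called (edgeR adjusted p = 0.17 and 0.47). In bulk RNA, fewer cells or vesicles that carry a miRNA and less of it in each cannot be told apart. Neither passenger passed the test, and their exosome and fibroblast levels overlapped. Within each hairpin the guide made up a smaller part of the reads in exosomes than in cells by a test of the arms against each other, a call that was lost in both hairpins without exosome library 1 (edgeR adjusted p = 0.094 and 0.15). Of all 248 hairpins tested, 21% were called with the more abundant strand relatively lower. The part of abundance in the arm difference was not tested. The statements on the members rest on few exosome reads, 40 and 13 over the 3 libraries for the guides and 12 and 13 for the passengers miR-101a-5p and miR-101b-5p.

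miR-101a-3p was the most abundant member in every library. It had 15023, 30460 and 2667 counts in fibroblast libraries 1, 2 and 4 and 13, 7 and 20 counts in exosome libraries 1, 2 and unnumbered. As CPM, counts relative to a library size adjusted with TMM, which aligns the bulk of miRNAs between libraries, the levels were 2434, 1224 and 1380 CPM in fibroblasts and 80.5, 54.8 and 389 CPM in exosomes. Every exosome library lay below every fibroblast library, and the unnumbered exosome library was the highest of its group. Its TMM factor was 0.43, against 1.34 and 1.13 in exosome libraries 1 and 2, which raises its CPM relative to theirs. By share of counts miR-101a-3p held 0.0108%, 0.00619% and 0.0168% in exosome libraries 1, 2 and unnumbered, a smaller spread. In rank it stood at 38, 38 and 59 of 728 in the fibroblast libraries and at 261, 327 and 80 in the exosome libraries. The mean was 1679 ± 658 CPM (SD, n = 3) in fibroblasts and 175 ± 186 CPM (SD, n = 3) in exosomes. The log2 fold change was -3.37 (SE 0.91, 95% interval -5.16 to -1.58), a 10.3-fold lower level (quasi-likelihood test of edgeR, Benjamini-Hochberg adjusted over 698 tested miRNAs, adjusted p = 0.0017). Without the unnumbered exosome library, which held 20 of its 40 exosome counts, the log2 fold change was -4.69.

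miR-101b-3p, with the same seed, had 3295, 5370 and 978 counts in fibroblast libraries 1, 2 and 4 and 7, 5 and 1 counts in exosome libraries 1, 2 and unnumbered. On the CPM scale these were 534, 216 and 506 in fibroblasts and 43.3, 39.2 and 19.5 in exosomes. The groups did not overlap, and the unnumbered exosome library, the highest for miR-101a-3p, was the lowest here. Fibroblast library 2, with a TMM factor of 1.99, was the lowest of its group on this scale. By share of counts library 4 was the lowest (0.0517%, 0.0429% and 0.0401% in fibroblast libraries 1, 2 and 4). The ranks of miR-101b-3p were 90, 121 and 116 in fibroblasts and 380, 402 and 482 in exosomes, where 36, 43 and 95 miRNAs shared its count. The mean was 418 ± 176 CPM (SD, n = 3) in fibroblasts and 34.0 ± 12.8 CPM (SD, n = 3) in exosomes. The log2 fold change was -3.52 (SE 0.77, 95% interval -5.02 to -2.01), an 11.4-fold lower level (edgeR adjusted p = 8.1e-05).

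**Figure D1:**
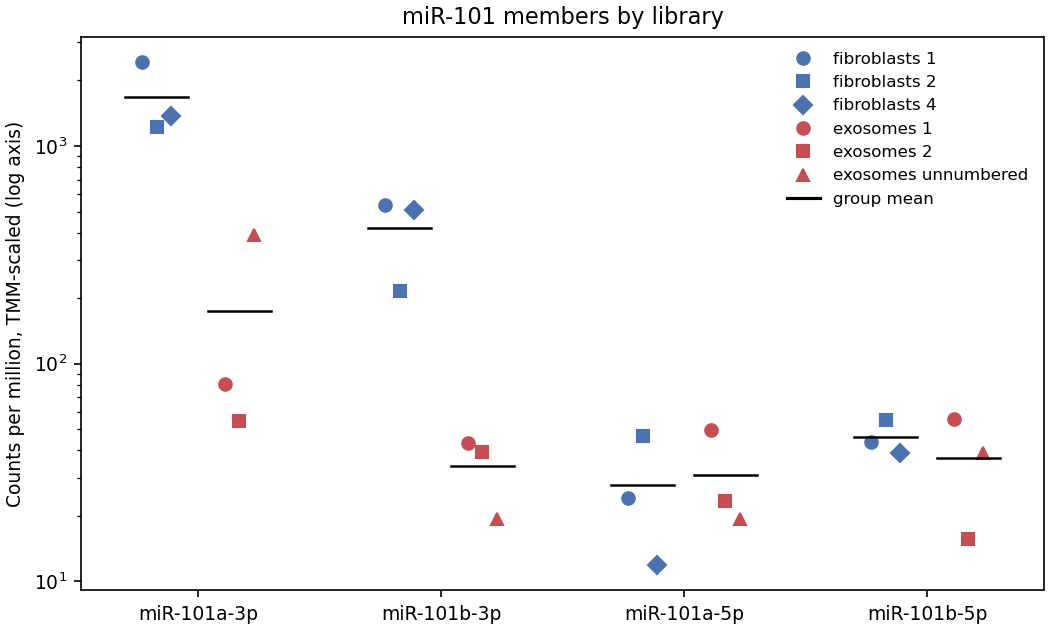
TMM-scaled CPM (log axis) of each miR-101 member in the 3 fibroblast (blue) and 3 exosome (red) libraries; symbols mark the library and black bars the group mean. The exosome points of the guides lie below all fibroblast points (highest 389 against lowest 1224 CPM for miR-101a-3p, 43.3 against 216 CPM for miR-101b-3p), while those of the passengers lie among them.

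Of the 4 members, 2 were called lower and 0 higher. Over all 698 tested miRNAs 29.9% were called, 18.6% lower and 11.3% higher. The CPM of the groups did not overlap for 39.4%, and for 24.6% the exosome values lay wholly below the fibroblast values. Calls also varied with abundance in the cells, as a description: fibroblast level is the denominator of the fold, and scarce miRNAs could hardly be called lower at this exosome depth or may have passed the filter through exosome reads. By mean fibroblast CPM miR-101a-3p ranked 45 among the tested miRNAs, and 44 of the 50 most abundant were called lower, with a median log2 fold change of -4.27. miR-101b-3p ranked 107, near a class boundary. Of ranks 51 to 100, 32 of 50 were called lower with a median of -2.51, and of ranks 101 to 200, 35 of 100 with a median of -0.92. The passengers ranked 513 (miR-101a-5p) and 408 (miR-101b-5p). Among ranks 401 to 698, 3 of 298 were called lower and 46 higher, with a median of 0.48. The part of abundance in the fold changes of the members was not tested.

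**Figure D2:**
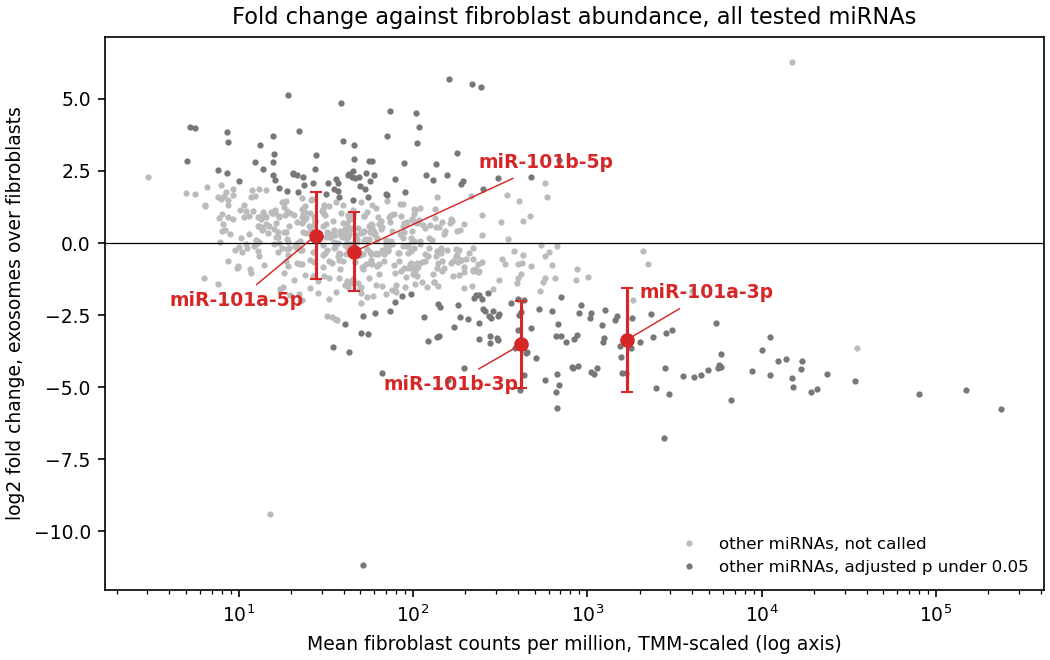
Log2 fold change, exosomes over fibroblasts, of the 698 tested miRNAs against mean fibroblast CPM (log axis); dark grey points passed the test, light grey points did not, and red points are the members with 95% intervals. The guides lie near -3.4 and -3.5 among abundant miRNAs that were mostly lower in exosomes, the passengers near 0 among scarce ones; the 2 points at the bottom are fitted values of miRNAs with 0 exosome counts.

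In the authors' deposited table miR-101a-3p was 9.44-fold higher in fibroblasts than in exosomes (adjusted p = 0.0147, DESeq). For miR-101b-3p the authors' deposited table gave a larger ratio, 12.1, with an adjusted p of 0.0629 (DESeq), above 0.05. It called 7.28% of its 728 miRNAs lower and 0% higher in exosomes at 0.05. For the passengers the authors' deposited table held ratios of 0.836 (miR-101a-5p) and 1.19 (miR-101b-5p), each with an adjusted p of 1 (DESeq).

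The passenger miR-101a-5p had 149, 1164 and 23 counts in fibroblast libraries 1, 2 and 4 and 8, 3 and 1 counts in exosome libraries 1, 2 and unnumbered. Its levels were 24.1, 46.8 and 11.9 CPM in fibroblasts and 49.5, 23.5 and 19.5 CPM in exosomes, with overlap. The log2 fold change of 0.26 (SE 0.77, 95% interval -1.25 to 1.77) did not pass (edgeR adjusted p = 0.85). In fibroblast libraries 1 and 4 its share of counts, 0.00234% and 0.000943%, was under the share that 0 exosome counts allow, so a lower exosome level could hardly have been detected at this depth.

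miR-101b-5p had 269, 1374 and 75 counts in fibroblast libraries 1, 2 and 4 and 9, 2 and 2 counts in exosome libraries 1, 2 and unnumbered. These were 43.6, 55.2 and 38.8 CPM in fibroblasts and 55.7, 15.7 and 38.9 CPM in exosomes, and the groups overlapped. Exosome library 2 and the unnumbered library had 2 counts each at similar totals, so their CPM differed mainly through the TMM factors, 1.13 and 0.43. The log2 fold change was -0.30 (SE 0.70, 95% interval -1.68 to 1.07; edgeR adjusted p = 0.80). The intervals of both passengers still allow changes of over 2-fold in either direction. In exosome library 1 miR-101a-5p and miR-101b-5p, at 8 and 9 counts, were close to the median miRNA, at 8. Both lay below the median in library 2 (3 and 2 counts against 7) and in the unnumbered library (1 and 2 against 3).

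The order of levels was the same in the 3 fibroblast libraries: miR-101a-3p, miR-101b-3p, miR-101b-5p, miR-101a-5p. The last neighbours, at 45.9 ± 8.45 and 27.6 ± 17.7 CPM (SD, n = 3), overlapped across libraries, while the guides overlapped neither each other nor the passengers. In exosomes miR-101a-3p was again first in each library at 175 ± 186 CPM, but the other members, at 1 to 9 counts, had no common order, and their means of 34.0, 36.8 and 30.8 CPM (miR-101b-3p, miR-101b-5p and miR-101a-5p) differed by less than the spread.

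The arms of a hairpin are counted in the same library, so their ratio does not depend on scaling between libraries. The 3p strand made up 99.0%, 96.3% and 99.1% of miR-101a counts in fibroblast libraries 1, 2 and 4. In exosome libraries 1, 2 and unnumbered it made up 13 of 21, 7 of 10 and 20 of 21 counts, or 61.9% (95% Clopper-Pearson interval 38.4 to 81.9), 70.0% (34.8 to 93.3) and 95.2% (76.2 to 99.9). All exosome values lay below all fibroblast values, but the unnumbered library missed fibroblast library 2 by little and its interval covers all 3 fibroblast values. In how many of all hairpins the groups do not overlap by this share was not counted, here or for miR-101b.

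For miR-101b the 3p strand made up 92.5%, 79.6% and 92.9% of counts in the fibroblast libraries, so that the passenger was best represented in library 2. In exosomes it made up 7 of 16, 5 of 7 and 1 of 3 counts, or 43.8% (19.8 to 70.1), 71.4% (29.0 to 96.3) and 33.3% (0.840 to 90.6). The exosome values again lay below those of the cells. Over the 248 hairpins with both arms tested, the minor strand was taken as the one with the lower mean log2 CPM over these 6 libraries. Fibroblast library 2 was also the fibroblast library with the highest median share of the minor strand, 28.3% against 24.3% and 20.7% in libraries 1 and 4. The exosome libraries had 27.4%, 27.8% and 16.7%, the last in the unnumbered library.

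The fold change of the 3p strand was lower than that of its 5p strand by 3.62 log2 units (SE 0.86) in the miR-101a hairpin and by 3.21 (SE 0.98) in the miR-101b hairpin (edgeR's exon-usage test over 248 hairpins, adjusted p = 0.00032 and 0.0055). In ratios these are 12.3-fold and 9.26-fold. In simulated data this arm test had a larger part of false calls than the main test. Over all hairpins 33.5% were called, and 21% were called with the major strand lower relative to the minor strand. Called or not, the major strand was lower relative to the minor strand in 145 of the 248 hairpins. The median difference of major minus minor strand was -0.52. The drop was larger than in the members in hairpins such as miR-21 (-7.30) and miR-10a (-7.22), and others such as miR-93 (7.65) went the other way. In the cells the guides ranked 45 and 107 and the passengers 513 and 408. By this rank the median log2 fold change was -4.27 (1 to 50), -0.92 (101 to 200) and 0.48 (401 to 698). The part of abundance in the arm difference was not tested. Without exosome library 1, which held 8 of the 12 and 9 of the 13 passenger counts, the difference was -2.51 for miR-101a (edgeR adjusted p = 0.094) and -2.78 for miR-101b (0.15), and neither hairpin was called. Without the unnumbered exosome library miR-101a was at -5.11 and called. Over the alternatives run the adjusted p lay between 8.9e-07 and 0.094 for miR-101a and between 0.0043 and 0.15 for miR-101b. As a mean of library shares, the 3p strand of miR-101a held 98.2% ± 1.60 in fibroblasts against 75.7% ± 17.4 in exosomes (SD, n = 3). The exact two-sided permutation test gave p = 0.1, the lower limit for 3 against 3, and 0.2 adjusted over 14 shares. That of miR-101b held 88.3% ± 7.53 in fibroblasts and 49.5% ± 19.7 in exosomes (SD, n = 3; exact permutation p = 0.1, 0.2 adjusted).

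**Figure D3:**
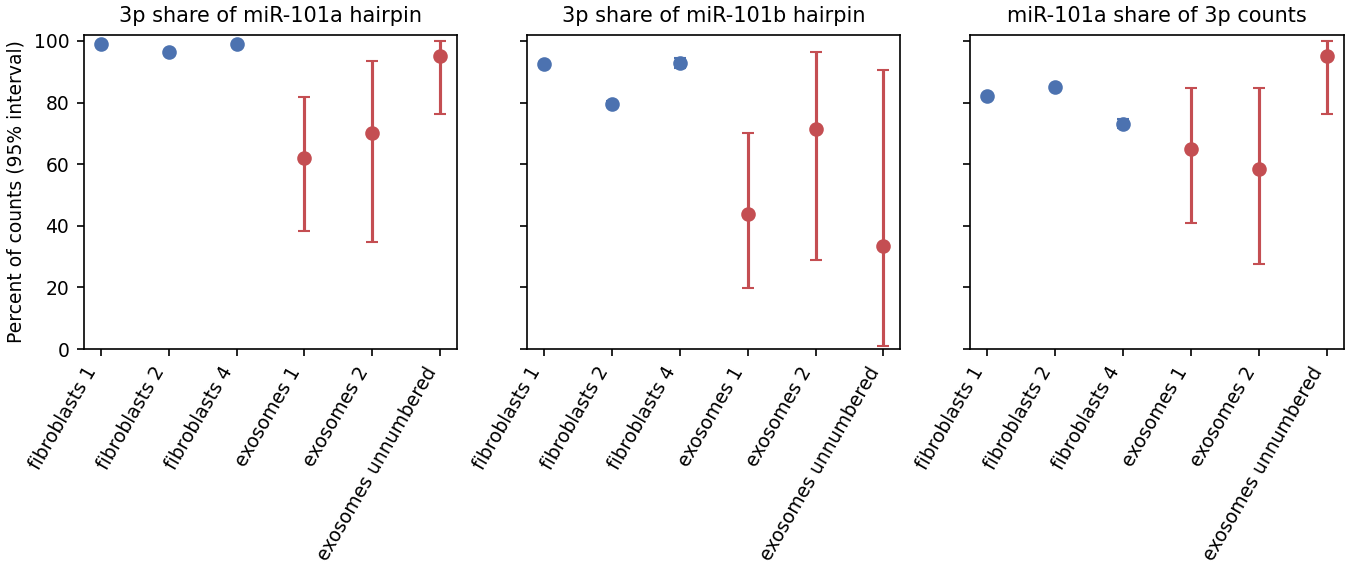
Percent of counts taken by the 3p strand in the miR-101a hairpin (left) and the miR-101b hairpin (middle), and by miR-101a among the summed 3p counts (right), in each library with 95% Clopper-Pearson intervals (fibroblasts blue, exosomes red). Fibroblast values lie between 79.6% and 99.1% in the first 2 panels with narrow intervals, and all exosome values lie below those of the same hairpin in cells, with wide intervals.

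The copies were compared through the share of miR-101a in the 3p counts. It was 82.0%, 85.0% and 73.2% in fibroblast libraries 1, 2 and 4. In exosome libraries 1, 2 and unnumbered it was 65.0% (95% Clopper-Pearson interval 40.8 to 84.6), 58.3% (27.7 to 84.8) and 95.2% (76.2 to 99.9). The exosome values stood on either side of those of the cells. The means were 72.9% ± 19.7 and 80.1% ± 6.16 (SD, n = 3), a difference of -7.21 percentage points that was smaller than the spread between exosome libraries (exact two-sided permutation p = 0.6, 0.65 adjusted). It was -3.28 without exosome library 1, 0.0545 without exosome library 2, -4.73 without fibroblast library 2 and -18.4 without the unnumbered exosome library, so its size and direction rested on single libraries. Among 5p counts miR-101a took 35.0% ± 11.2 in fibroblasts against 46.8% ± 13.3 in exosomes (SD, n = 3; exact permutation p = 0.4, 0.51 adjusted). That difference of 11.8 percentage points was 5.20 without exosome library 2, 6.04 without fibroblast library 4 and 18.5 without the unnumbered exosome library. Neither exact permutation test could have gone below p = 0.1 with 3 against 3, so they do not show that the copies were alike.

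The members together made up 0.294%, 0.307% and 0.153% of fibroblast counts and 0.0308%, 0.0150% and 0.0202% of exosome counts, with no overlap (exact two-sided permutation p = 0.1). With miR-873-3p left out of the total the exosome shares became 0.204%, 0.119% and 0.203%, and the fibroblast shares 0.298%, 0.308% and 0.157%. On this scale the groups overlapped (exact permutation p = 0.3). miR-101a-3p alone then held 0.0716%, 0.0488% and 0.169% in exosomes against 0.239%, 0.244% and 0.112% in fibroblasts, where the unnumbered exosome library passed fibroblast library 4. miR-101b-3p held 0.0385%, 0.0349% and 0.00846% against 0.0523%, 0.0431% and 0.0411%, still without overlap. miR-101b-5p held 0.0495%, 0.0139% and 0.0169% in exosomes against 0.00427%, 0.0110% and 0.00315% in fibroblasts. Here the exosome values were the higher ones, without overlap (exact permutation p = 0.1). Most miRNAs moved this way once miR-873-3p was left out. In the edgeR fit with these totals 378 of 696 miRNAs were called higher and 36 lower. The middle log2 value of the 696 was 2.37, above the 2.16 of miR-101b-5p, which was not called. For how many of all miRNAs the groups do not overlap on either share scale was not counted.

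Fold changes in these data are relative to the scaling between libraries. With TMM 130 miRNAs were lower and 79 higher, 37.8% of the calls being higher. The percentage was 26.2 with total counts, 91.3 with totals without miR-873-3p, 75.5 with totals without the 5 most abundant miRNAs and 15.2 with totals that include reads outside the listed miRNAs, and these settings shifted the median of all tested miRNAs by -0.42, 2.52, 1.49 and -0.81 log2 units (0.14 with the TMMwsp form of TMM). With totals without miR-873-3p the guides had log2 fold changes of -1.06 (miR-101a-3p; edgeR adjusted p = 0.17) and -0.69 (miR-101b-3p; 0.47) and did not pass, and the passengers had 2.58 (miR-101a-5p; 0.039) and 2.16 (miR-101b-5p; 0.064). With totals without the 5 most abundant miRNAs miR-101a-3p was called (log2 -2.03, edgeR adjusted p = 0.012) and miR-101b-3p was not (log2 -1.74, adjusted p = 0.073). Over the alternatives run the adjusted p lay between 9.4e-08 and 0.17 for miR-101a-3p, 6.9e-07 and 0.47 for miR-101b-3p, 0.039 and 0.99 for miR-101a-5p and 0.064 and 0.95 for miR-101b-5p.

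A change of scaling shifts all fold changes nearly alike, so values set against the median of all tested miRNAs in the same fit are near constant over scalings by construction. miR-101a-3p lay 3.22 log2 units below that median with TMM (log2 fold change minus median -3.22) and between -3.66 and -3.22 over 7 scalings. For miR-101b-3p the range was -3.47 to -3.03, for miR-101a-5p 0.21 to 0.45 and for miR-101b-5p -0.21 to -0.15. The libraries moved these values more. For miR-101a-3p the difference from the median was -2.68 without exosome library 1 and -4.49 without the unnumbered exosome library, and for miR-101b-3p it ran from -3.53 to -2.95 without 1 library. These differences are descriptions and carry no test of their own.

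**Figure D4:**
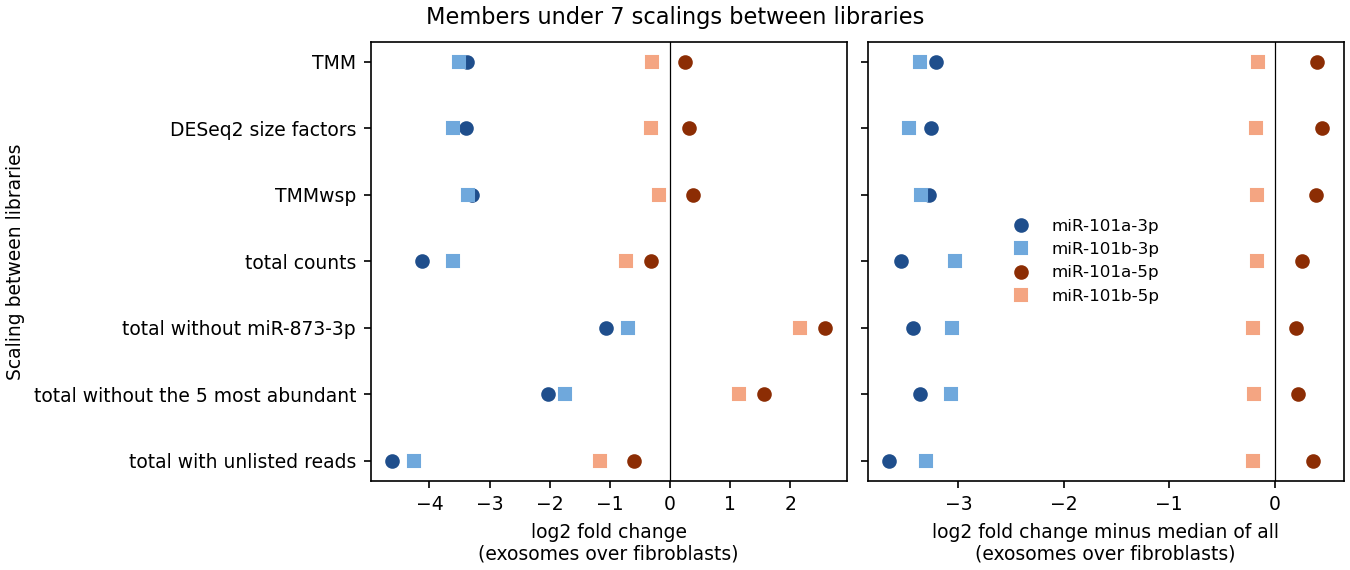
Log2 fold change (exosomes over fibroblasts) of each member under 7 scalings between libraries (left), and the same minus the median of all tested miRNAs (right). The guides range from -4.62 to -0.69 on the left and from -3.66 to -3.03 on the right, and the passengers cross 0 on the left.

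Among listed miRNAs with a RefSeq sequence, miR-144-3p was the sole one outside the members to share bases 2 to 7 with the guides (ACAGUA), with a different base 8. Its sequence is shown for comparison of the seed, in capitals.
miR-144-3p: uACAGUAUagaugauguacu

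miR-144-3p, known from red blood cell precursors, had 282, 630 and 18 counts in fibroblast libraries 1, 2 and 4 and 1, 2 and 1 counts in exosome libraries 1, 2 and unnumbered. Its log2 fold change was -1.15 (SE 1.00, edgeR adjusted p = 0.43). Among the listed miRNAs with a RefSeq sequence, the guides thus held nearly all fibroblast counts with ACAGUA at bases 2 to 7. Listed miRNAs without a sequence were not searched. miR-101a-5p shared bases 2 to 7 with miR-935, which had 320, 2168 and 183 fibroblast and 19, 16 and 13 exosome counts (log2 1.02, SE 0.61, edgeR adjusted p = 0.22).

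The miRNAs whose profile over the 6 libraries was most like that of miR-101a-3p, by root mean square distance between mean-centred log2 CPM, were miR-3586-3p (0.32 log2 units), miR-30a-5p (0.34), miR-186-5p (0.43), miR-30e-5p (0.43) and miR-151-5p (0.47), of 423 candidates with a mean of 50 CPM or more. For miR-101b-3p they were miR-23b-3p (0.51), miR-3585-5p (0.56), miR-24-3p (0.60), miR-199a-5p (0.61) and miR-26b-5p (0.62). The lists shared no miRNA. The guides themselves lay 1.25 log2 units apart (Pearson's r = 0.80 over the 6 libraries, a description). The 5 nearest had the smallest of 423 distances, so a greater distance for a pair named beforehand is nearly built in. Where the distance between the guides would stand beside the 423 was not counted. The unnumbered exosome library separated the guides, with 20 counts of miR-101a-3p and 1 of miR-101b-3p. Of the miRNAs nearest to miR-101a-3p, miR-30a-5p, miR-30e-5p and miR-151-5p had their highest exosome count there, 138, 43 and 13. miR-186-5p had 20, 12 and 19 counts and miR-3586-3p 4, 2 and 4 in exosome libraries 1, 2 and unnumbered. Of those nearest to miR-101b-3p, miR-23b-3p, miR-3585-5p, miR-24-3p, miR-199a-5p and miR-26b-5p had their lowest there, 3, 1, 5, 7 and 8. All were chosen for their profile, so this likeness is built in.

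Other miRNAs with roles ascribed to miR-101 were described by list. Of 15 miRNAs called anti-fibrotic in the cardiac literature, 13 were tested, 8 were lower in exosomes and 1 was higher; over all tested miRNAs 18.6% were lower and 11.3% higher, which is also the background for the lists that follow. The median log2 fold change of the 13 was -3.23, against -0.15 over all tested miRNAs. The most abundant were miR-26a-5p (log2 -4.54, SE 1.48), miR-30a-5p (log2 -3.25, SE 1.25), miR-29a-3p, a repressor of collagen genes (log2 -4.52, SE 0.97), and miR-9a-5p, best known from neural tissue, which was the 1 higher (log2 4.59, SE 0.93). Of 6 other miRNAs that repress Ezh2, 4 were lower (miR-26a-5p, miR-26b-5p, miR-98-5p and miR-214-3p), miR-138-5p was higher (log2 3.48, SE 0.82) and miR-124-3p was not called, with a median of -3.32. miR-138-5p had 331, 157 and 10 counts in exosome libraries 1, 2 and unnumbered.

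Of 7 other miRNAs that repress Ptgs2, 5 were lower and 0 higher, beside 18.6% and 11.3% of all tested miRNAs, with a median of -4.33. miR-144-3p and miR-137-3p (log2 0.19, SE 1.19) were not called. The lower ones were miR-143-3p (log2 -5.75, SE 2.26), miR-199a-3p (log2 -5.17, SE 1.48), miR-16-5p (log2 -4.33, SE 1.17), miR-26b-5p (log2 -3.45, SE 0.86) and miR-146a-5p, a miRNA of inflammation (log2 -5.11, SE 0.90). These lists share members, and most of the miRNAs in them are abundant in the cells, so nothing particular to a list is read from its count.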

How the data were processed

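Small RNA libraries were made from Trizol RNA, per the labels' protocols. The main tests used the deposited raw counts of reads for each mature miRNA. A further deposited table holds normalized signal, which its values show to be whole reads over a size factor; the reads behind it came to 99.3% to 99.8% of the raw counts and lay within 0.000314 of whole numbers. Its row of reads that name no miRNA (63.1% to 84.4% of reads) stayed out of library sizes except where stated. Per the file headers, the authors' deposited comparison gives the fold ratio of group means with its log2, and p-values before and after adjustment. The submitters' processing notes name CASAVA 1.8.2, cutadapt 1.2.1, DESeq and rn5. Aligner, counting rule and miRNA release: not given in the sources used here.

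The test was that of edgeR 4.0.16 (R 4.3.3): TMM, filterByExpr (minimum count 10, total 15; 30 miRNAs removed, all 4 members kept), the quasi-likelihood test on group over all 6 libraries, two-sided, Benjamini-Hochberg adjustment, threshold 0.05. The filter works on CPM, so a scarce miRNA can pass through a few exosome reads. Standard errors were taken from the F statistic (absolute log2 fold change over its root). Arms were compared with diffSpliceDGE. The procedures were tested on simulated data, where the arm test recovered a smaller part of the changed features than the main test and had a larger part of false calls. Log2 CPM used a prior count of 2. Shares used exact two-sided permutation tests and Clopper-Pearson intervals (scipy 1.17.1). Alternatives were other scalings, DESeq2 1.42.0, limma 3.58.1 voom, no filter, the normalized table's reads, a block on library number, and leaving out each library.

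Named miRNAs were the members, those sharing bases 2 to 7 with one, the 5 with the nearest profile per guide and the up to 4 most abundant per list (3 lists, plus markers of 4 cell types). miR-214-3p, miR-124-3p, miR-146a-5p, miR-137-3p and the markers named fall outside this rule and were chosen after their values were seen. Members and lists were chosen with earlier results of these data known. Sequences are from RefSeq (GRCr8); 655 of the 728 listed names matched.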

Additional observations from a re-analysis of the deposited data

How the results depend on the processing

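Over 17 alternatives miR-101a-3p and miR-101b-3p were lower in exosomes each time, by log2 -4.69 to -1.06 and -4.26 to -0.69. They stayed called in 16 and 15 of them. The exceptions were totals without miR-873-3p (-1.06 and -0.69, neither called) and, for miR-101b-3p, totals without the 5 most abundant miRNAs (-1.74). The passengers gave values under 14 alternatives; without a fibroblast library they did not pass the count filter, so they and the arm test gave none there. miR-101a-5p turned to -0.31 with total counts, -0.60 with totals that include unlisted reads and -0.53 without exosome library 1 (range without 1 library -0.53 to 0.42), and was called at 2.58 with totals without miR-873-3p. miR-101b-5p turned to 2.16 and 1.14 with totals without miR-873-3p and without the 5 most abundant miRNAs. A larger or smaller library size moves all fold changes by construction. Without 1 exosome library the arm difference ran from -5.11 to -2.51 for miR-101a and from -3.76 to -2.78 for miR-101b, lost in both without exosome library 1, which leaves 4 passenger counts in each hairpin. Without the unnumbered exosome library miR-101a-3p was at -4.69 and without exosome library 1 at -3.04.

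The count of lower miRNAs, 130, was 36 and 60 with totals without miR-873-3p and without the 5 most abundant miRNAs, and 86 (without exosome library 1) to 139 without 1 library. The count of higher ones, 79, was 43 with total counts, 378 and 185 with the same exclusions, 35 with unlisted reads in the total and 46 (without exosome library 2) to 78 without 1 library. Leaving miR-873-3p out of the total moved the exosome minus fibroblast difference in share to -0.102 percentage points for miR-101a-3p, -0.0182 for miR-101b-3p, 0.0202 for miR-101a-5p, 0.0207 for miR-101b-5p and -0.0791 for all members. The replicate block on libraries numbered 1 and 2 gave -4.67 for miR-101a-3p, -3.07 for miR-101b-3p, 0.22 for miR-101a-5p and -0.39 for miR-101b-5p, changed no call of a member and gave 142 lower and 100 higher miRNAs. The labels do not say that a shared number marks a shared culture, so the numbers were not taken as pairs. The deviations of same-numbered libraries correlated at -0.07 for number 1 and 0.16 for number 2. Across numbers they correlated at 0.21 (exosome library 1, fibroblast library 2) and -0.01 (exosome library 2, fibroblast library 1). At these exosome counts a low correlation cannot tell whether libraries were paired. Exosome depth limits all of this, with 1 to 20 counts per member and library.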
